A study of Mus musculus with 6 samples.

Results

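The survival motor neuron (SMN) complex is described here by the transcripts of 9 genes: Smn1 and the 8 genes of its partner proteins, Gemin2, Ddx20 (which encodes Gemin3), Gemin4, Gemin5, Gemin6, Gemin7, Gemin8 and Strap (which encodes unrip). The genes were chosen by name as members of the complex and were matched by symbol among 41945 genes and loci. All 9 were found, 8 under their own symbol and Gemin2 under its older symbol Sip1.

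The SMN complex loads a ring of Sm proteins onto the small nuclear RNAs of the spliceosome in the cytoplasm. Gemin5 recognises the RNA, SMN and Gemin2 hold the Sm proteins, and the finished particle is given a modified cap and imported into the nucleus. Loss or mutation of the human gene SMN1 lowers SMN and causes spinal muscular atrophy (SMA). In SMA spinal motor neurons degenerate although the complex is made in every cell type.

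RNA was sequenced from motor neurons (MNs) derived from mouse embryonic stem cells (mESCs), in 3 samples per genotype. The Hb9 line, labelled wildtype (SMN2+/+;mSmn+/+), gave the Hb9 control MNs, called control MNs here. The A2 SMA MNs, called SMA MNs, came from a line without functional mouse Smn1 (SMN2+/+;mSmn−/−). Both lines are on the FVB/N background and carry the human SMN2 transgene at low copy and an HB9:eGFP reporter, driven by the promoter of a motor neuron gene. In both, embryoid bodies primed with noggin, FGF2 and FGF-8b received 1 µM retinoic acid (RA) and 1 µM Smoothened agonist (SAG) for 5 days, and cells positive for GFP and negative for propidium iodide were sorted. Each genotype is 1 line, so genotype and cell line cannot be told apart. The values are the authors' FPKM (fragments per kilobase of exon, scaled to the mapped total), a level per length with 1 pooled value per genotype and gene. No spread between the samples of a genotype can be computed from these pooled values, so no difference was tested or checked in replicates here, and the reads behind a value are unknown.

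The cell type named in the labels was checked against its markers. Cells of both lines were sorted on GFP driven by the promoter of Mnx1, the gene of Hb9, so Mnx1 is no independent check. Mnx1 was at 41.2 FPKM in control MNs and 44.2 FPKM in SMA MNs. The other motor neuron markers did not keep this level. Isl1, a homeobox factor and the most abundant motor neuron marker in control MNs, was at 108 FPKM and 5.95 FPKM. Lhx3, its partner in specifying MNs, was at 27.6 FPKM and 0.348 FPKM. Chat, the enzyme of acetylcholine synthesis, was at 15.5 FPKM and 0.344 FPKM. None of the 7 markers measured was listed at 0, but 4 of them were under 1 FPKM in SMA MNs, against 1 in control MNs. The summed level of these 7 was 216 FPKM in control MNs and 52.5 FPKM in SMA MNs. Mnx1 alone made up 41.2 FPKM and 44.2 FPKM of these sums. The summed level of 9 pan-neuronal markers was 1470.4 FPKM and 147 FPKM. The most abundant was the neurofilament gene Nefm in control MNs and Stmn2 in SMA MNs. Stmn2 was at 242 FPKM in control MNs and 78.0 FPKM in SMA MNs. Its status in the authors' table is FAIL, which means that its comparison could not be computed. For 9 pluripotency markers the sum was 456 FPKM and 2018 FPKM. Of these, Sox2 was the most abundant in control MNs, at 179 FPKM against 197 FPKM in SMA MNs. Pou5f1 was the most abundant in SMA MNs, at 775 FPKM against 98.3 FPKM in control MNs. Other markers in these sums also have the status FAIL. Slc18a3 and Tubb3, a further motor neuron and a further pan-neuronal marker, were not analysed here. The A2 SMA cells are thus labelled as MNs but were low in most defining MN transcripts. In these bulk samples fewer cells of a type and less RNA per cell cannot be told apart, and the part of this difference in the values of the SMN complex was not tested.

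Smn1 encodes SMN itself and is the gene disrupted in the A2 line. In build NCBI m37 its locus of 12839 bp spans 100894807 to 100907645 on chromosome 13. Its level was 137 FPKM in control MNs and 5.26 FPKM in SMA MNs, a 25.9-fold lower level and a log2 ratio of -4.70. The low value matches the genotype label, and 3.86% of the control level was still assigned to Smn1 in SMA MNs. The human SMN2 transgene was not analysed here, and whether any of its reads were assigned to Smn1 was not tested. In control MNs 94.6% of 14926 genes were below Smn1, and in SMA MNs 32.0% were. These 14926 genes carry a symbol, are above 0 FPKM in both genotypes and reach 1 FPKM in at least one. Of them, 117 genes (0.784%) had a lower log2 ratio than Smn1. Among the 811 other genes at least as high as Smn1 in control MNs, 4 had a log2 ratio at or below its own.

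Around this change in Smn1, the 8 partners were mostly close to their control level. A change of at least 2-fold lower was seen for 1 of the 8 partners, Gemin8, where 22.4% of all genes were at least 2-fold lower. A change of at least 2-fold higher was seen for 0 of the 8, where 6.83% of all genes were at least 2-fold higher. These shares give no ground to set the partners apart from other genes. The median log2 ratio of the partners was -0.16, beside -0.29 for all genes, and the log2 ratio of Smn1 minus the partners' median was -4.54. The median size of the log2 ratio, whatever its sign, was 0.47 for the partners and 0.55 for all genes. Centring on the median gene or scaling to the upper quartile gives the partners' median a positive sign, at 0.13 in both cases. The same centring moves the all-gene split from 1020 genes higher and 3343 lower to 1558 higher and 2461 lower.

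**Figure D1:**
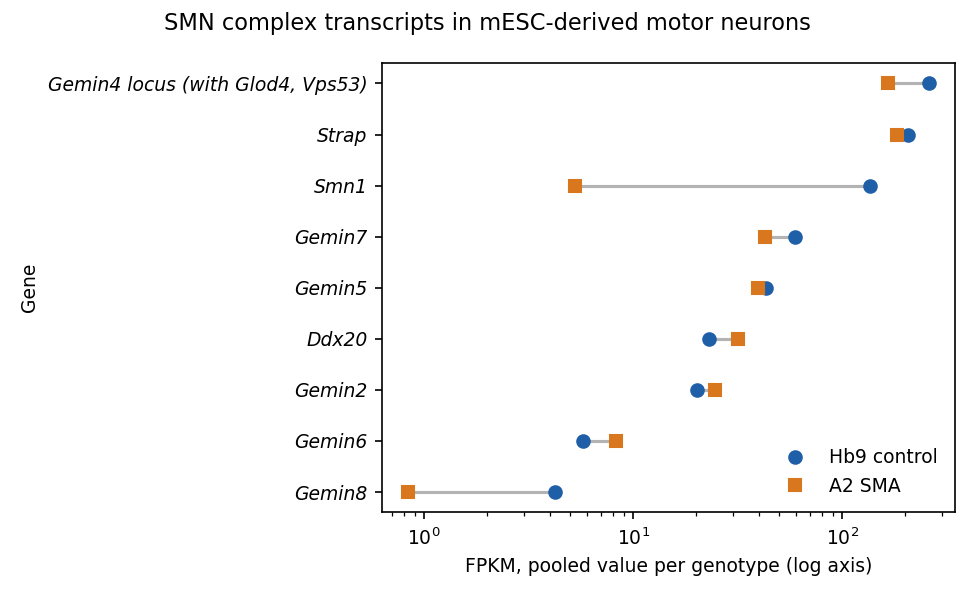
Level of each SMN complex gene in FPKM on a log axis, as the authors' pooled value in Hb9 control MNs (blue circles) and A2 SMA MNs (orange squares), joined by a grey line. Smn1 moves from 137 to 5.26 FPKM and Gemin8 from 4.21 to 0.839 FPKM, while the lines of the other 7 genes are shorter than 2-fold.

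Gemin2 binds SMN directly and clasps the Sm ring during assembly. It was at 20.3 FPKM in control MNs and 24.8 FPKM in SMA MNs, which is 1.22-fold higher. Its locus lies on chromosome 12 from 60114380 to 60129455. In control MNs the level of Smn1 was 6.73 times that of Gemin2, and in SMA MNs the level of Gemin2 was 4.70 times that of Smn1. The order of these binding partners was thus turned over at the transcript level, by the value of Smn1 and hardly by that of Gemin2.

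Gemin8, Gemin7, Gemin6 and Strap form the peripheral arm of the complex, in which Gemin8 joins the heterodimer of Gemin6 and Gemin7 to SMN and unrip docks on Gemin7. Their levels in control MNs ran from 4.21 to 207 FPKM. Gemin8, on chromosome X from 162608386 to 162628444, had the lowest level of the 9 genes in both genotypes, at 4.21 FPKM in control MNs and 0.839 FPKM in SMA MNs. This 5.01-fold lower level, a log2 ratio of -2.33, was the largest change among the partners, and 6.85% of all genes had a lower log2 ratio. The value rests on a low level: with 1 FPKM added to both values the log2 ratio was -1.502, and a filter of 5 FPKM leaves Gemin8 out.

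Gemin6, Gemin7 and Strap, the other genes of the peripheral arm, were within 2-fold, as were 70.8% of all genes. Gemin6, on chromosome 17 from 80623781 to 80627837, had a low level like Gemin8. It was at 5.74 FPKM in control MNs and 8.29 FPKM in SMA MNs, 1.44-fold higher. Gemin7, which pairs with Gemin6 in a dimer folded like a pair of Sm proteins, lies on chromosome 7 from 20150295 to 20159172. It was at 59.2 FPKM and 42.7 FPKM, 1.39-fold lower. Strap, on chromosome 6 from 137683599 to 137700453, was among the most abundant of the 9 genes, at 207 FPKM in control MNs and 182 FPKM in SMA MNs, 1.14-fold lower. Within this arm, then, 1 gene was higher and 3 were lower, where 65.9% of all genes were lower by any amount. Of the lower genes, Strap becomes higher by 0.10 on the log2 scale when values are centred on the median gene.

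Ddx20 encodes Gemin3, a DEAD-box RNA helicase that binds SMN and brings Gemin4 into the complex. It was at 23.2 FPKM in control MNs and 31.8 FPKM in SMA MNs, 1.37-fold higher. Its locus is on chromosome 3 from 105481178 to 105490492. The value for Gemin4 is less certain, because 1 locus on chromosome 11 from 75859728 to 76064121 carries the symbols Gemin4, Glod4 and Vps53 together. That locus was at 260 FPKM in control MNs and 167 FPKM in SMA MNs, 1.56-fold lower, and the share of Gemin4 in it is unknown. Its level therefore says little of Gemin4 alone.

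Gemin5, the subunit that reads the small nuclear RNA, lies on chromosome 11 from 57933504 to 57982041. It was at 43.4 FPKM in control MNs and 39.7 FPKM in SMA MNs, 1.09-fold lower, the smallest change of the 9 in the values as deposited. The authors' table marks its status as FAIL, which means that the comparison could not be computed for this locus, so its levels carry less weight. Of the partners in a row of their own with the status OK, 6 in number, 3 were lower and 3 higher in SMA MNs. Over all genes, 65.9% were lower by any amount.

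The order of levels, all per length, shows the change of Smn1 against its partners. In control MNs Smn1 was at rank 3 of 9, below the Gemin4 locus and Strap and above Gemin7, Gemin5, Ddx20, Gemin2, Gemin6 and Gemin8. In SMA MNs Smn1 was at rank 8, below Gemin6 and above Gemin8. Among the 8 partners the order differed only in that Strap and the Gemin4 locus exchanged places. Without a spread between samples it cannot be said which neighbours in this order differ, and the closest in SMA MNs were Gemin7 and Gemin5 at 42.7 and 39.7 FPKM.

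FPKM values depend on the total, so the direction of small changes was read under each scaling. Relative to the median gene, Smn1 was at -4.41 on the log2 scale, Gemin8 at -2.04, the Gemin4 locus at -0.35 and Gemin7 at -0.18. On the same scale Strap was at 0.10, Gemin5 at 0.16, Gemin2 at 0.58, Ddx20 at 0.75 and Gemin6 at 0.82. Gemin2, Ddx20 and Gemin6 were thus higher, and Gemin8, the Gemin4 locus and Gemin7 lower, under every scaling tried. Gemin5 and Strap changed sign when centred on the median gene or scaled to the upper quartile, and Gemin5 also with the reference transcripts Gusb, Pgk1 and Rpl13a.

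**Figure D2:**
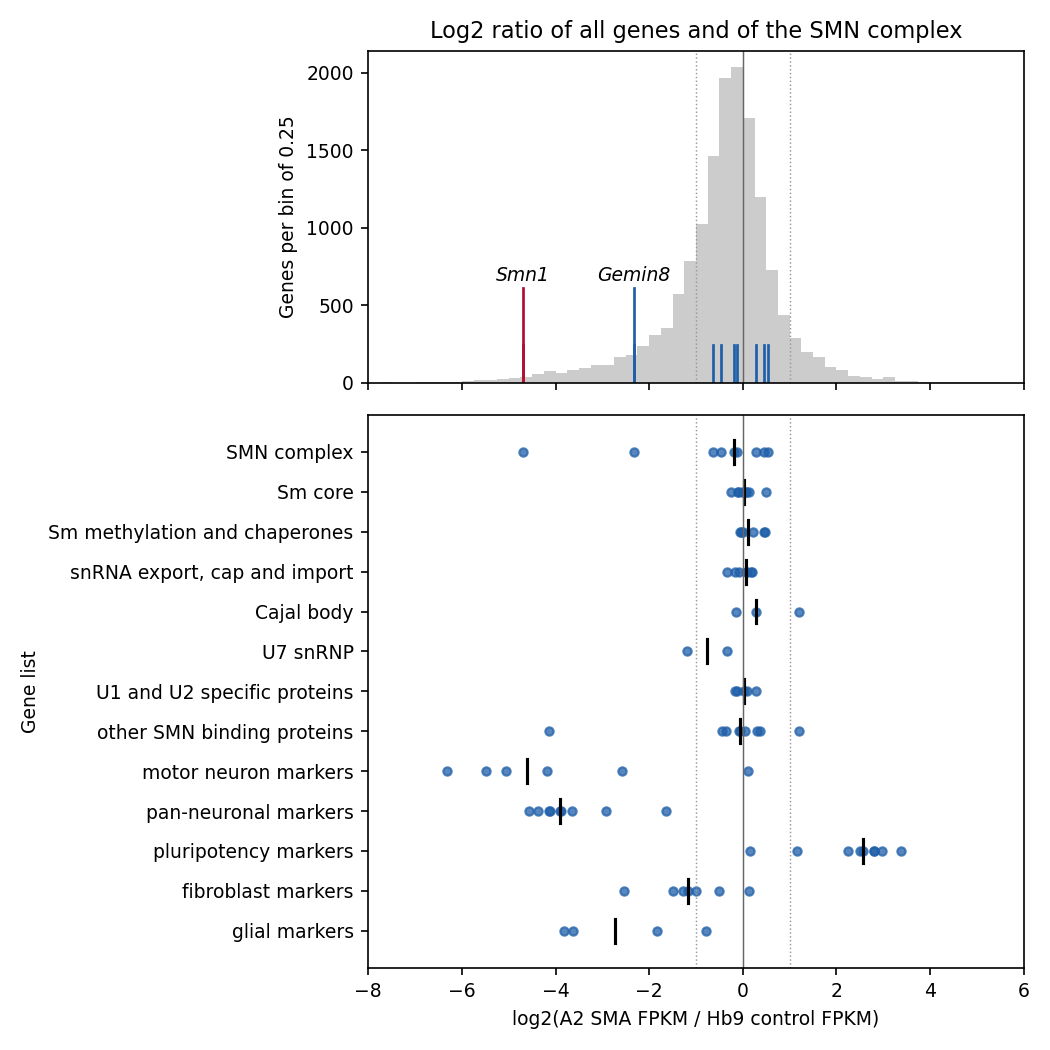
Top, number of genes (grey, bins of 0.25) by log2 ratio of A2 SMA over Hb9 control FPKM, with Smn1 as a red line and its 8 partners as blue lines; 4 genes lie outside the range drawn. Bottom, the same ratio for each gene (points) of the SMN complex and of the other gene lists, with the list's median as a black bar and dotted lines at a 2-fold change; Smn1 (-4.70) and Gemin8 (-2.33) lie past the lower one.

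The proteins that the SMN complex works with were next set beside it. The 8 genes of the Sm core, which encode the ring itself, were all within 2-fold, with a median log2 ratio of 0.02 and a range from -0.24 to 0.49. The most abundant, Snrpd3, was at 237 FPKM in control MNs and 260 FPKM in SMA MNs. Snrpb and Snrpn are near-identical copies whose reads may be shared, so their separate values are uncertain. The 6 genes that methylate and chaperone Sm proteins before they reach SMN were also within 2-fold (median 0.11), and Prmt5, the methyltransferase, was at 135 FPKM and 185 FPKM with the status FAIL. The 7 genes of RNA export, cap modification and nuclear import had a median of 0.07, and the import receptor Kpnb1 was at 482 FPKM and 504 FPKM, also with the status FAIL. The 5 genes listed for proteins specific to U1 and U2 particles were within 2-fold (median 0.02), and Snrnp70 was at 353 FPKM and 323 FPKM. For these lists the share of all genes within 2-fold was 70.8%.

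Past 2-fold, 2 of 31 genes of snRNP assembly were found, 1 in each direction (3.23% each), where 22.4% of all genes were lower and 6.83% higher. Relative to the median gene, the lower of them, in the U7 list, is within 2-fold. Coil encodes coilin, the scaffold of Cajal bodies, to which SMN binds in the nucleus. It shares a row with the symbol 2210409E12Rik and was at 33.5 FPKM in control MNs and 77.1 FPKM in SMA MNs, a log2 ratio of 1.20. Lsm11 is specific to the U7 particle of histone pre-mRNA processing, whose ring the SMN complex also assembles. It was at 14.0 FPKM and 6.14 FPKM, a log2 ratio of -1.19, while its ring partner Lsm10 was at 34.0 FPKM and 26.9 FPKM. The medians were 0.29 over the 3 Cajal body genes and -0.77 over the 2 genes of U7. Scaling to TPM turns the medians of the Sm core and of the U1 and U2 proteins to -0.03, and a filter of 5 FPKM turns that of the U1 and U2 proteins to -0.06. The median of the 31 genes was 0.02, beside -0.16 for the 8 partners and -0.29 for all genes.

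A list of 9 other proteins that bind SMN outside the complex had 1 gene at least 2-fold lower and 1 at least 2-fold higher (11.1% each), where the shares of all genes were 22.4% and 6.83%. The lower was Elavl4, which encodes the neuronal RNA-binding protein HuD, at 199 FPKM in control MNs and 11.3 FPKM in SMA MNs, a log2 ratio of -4.14. Elavl4 is also one of the pan-neuronal markers, all 9 of which were at least 2-fold lower. The higher was Coil, described above. Igf2bp1, an RNA-binding protein gene and the most abundant of the 9 by its higher value, shares a row with Mir3063 and was at 206 FPKM and 196 FPKM. The median of this list, -0.07, becomes 0.22 when values are centred on the median gene or scaled to the upper quartile, 0.07 with the reference transcripts and 0.06 without rows of several symbols.

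The genes whose pair of levels came nearest to that of Smn1 were Sncg, Ecel1 and Gpr56, by distance in log2 FPKM over the 2 genotypes. Sncg, which encodes gamma-synuclein, was at 137 FPKM in control MNs and 5.24 FPKM in SMA MNs, a distance of 0.0071 from Smn1. Ecel1, a neuronal endopeptidase-like gene, was at 131 FPKM and 4.52 FPKM. Gpr56, an adhesion receptor, was at 125 FPKM and 4.29 FPKM with the status FAIL. With 1 value per genotype, such likeness holds for any genes of the same level and ratio.

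Genes beside each member were read for changes in the region as well as in the gene. At most the 2 nearest loci with a symbol within 100 kb were taken for each of the 9 genes, 18 in all. Of these, 6 were below 1 FPKM in both genotypes: Naip2, Gm17529, 1700095B22Rik, Gm12246, Ttc39d and Gm15227. Among the other 12, 4 were at least 2-fold lower and 1 at least 2-fold higher. The shares of all genes were 22.4% and 6.83%. Next to Smn1, Serf1 had a log2 ratio of -1.996. Next to Gemin8, at a gap of 48398 bp, Gpm6b encodes a membrane glycoprotein of neurons and glia. It was at 83.2 FPKM in control MNs and 2.47 FPKM in SMA MNs, with the status FAIL.

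Kcnd3, a potassium channel gene 4257 bp from Ddx20, was at 3.66 FPKM and 0.302 FPKM, while Ddx20 itself was higher in SMA MNs. Fam57a, which is listed at the same locus as Gemin4, was at 28.2 FPKM and 8.78 FPKM, and the library kit was not stated to keep strand, so reads of overlapping genes cannot be told apart there. Zfp296, a zinc finger gene 3463 bp from Gemin7, was at 8.68 FPKM in control MNs and 32.8 FPKM in SMA MNs, against the lower value of Gemin7. The remaining neighbours, Sec23a, Rnmtl1, Cnot8, Dhx57, Ppp1r37, Dera and Eps8, were within 2-fold. Smn1 and Gemin8, the members at least 2-fold lower, thus each had 1 neighbour at least 2-fold lower. The next named gene from Smn1, Bdp1 at a gap of 20778 bp, was at 15.7 FPKM and 14.0 FPKM. Ddx20, the Gemin4 locus and Gemin7 had a neighbour past 2-fold while they were within 2-fold themselves. Over all 35 neighbours with a symbol within 100 kb that reach 1 FPKM, 7 (20%) were at least 2-fold lower and 2 (5.71%) at least 2-fold higher, near the shares of 22.4% and 6.83% for all genes.

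Since Smn1 and Gemin8 were the members at least 2-fold lower, the 250 bases before their transcription starts are shown, as RefSeq gives them in build GRCm38.p6 on the plus strand. The windows are chr13:100124605-100124854 for Smn1 and chrX:166170204-166170453 for Gemin8. Smn1 has another start in RefSeq. The one shown was taken because 12845 bp lie from it to the gene's end, close to the 12839 bp of the measured locus, against 14495 bp for the other. Capitals mark the motifs searched, on both strands: CCGGAA (the core bound by ETS factors), ACGTCA (in the cyclic AMP response element), GGGCGG (the GC box) and TATAAA (the TATA box), none of which overlap in these windows.
Smn1: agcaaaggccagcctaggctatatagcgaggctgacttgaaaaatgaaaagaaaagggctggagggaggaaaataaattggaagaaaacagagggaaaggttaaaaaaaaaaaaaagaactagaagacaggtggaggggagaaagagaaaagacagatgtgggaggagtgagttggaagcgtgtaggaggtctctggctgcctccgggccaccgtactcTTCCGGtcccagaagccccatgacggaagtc
Gemin8: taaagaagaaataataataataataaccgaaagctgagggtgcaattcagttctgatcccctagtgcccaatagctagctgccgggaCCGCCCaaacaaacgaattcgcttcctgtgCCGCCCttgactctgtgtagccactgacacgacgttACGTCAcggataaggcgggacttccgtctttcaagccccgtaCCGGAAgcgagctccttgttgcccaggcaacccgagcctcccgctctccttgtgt

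The motifs were chosen after the sequences were seen, and a match describes letters only. Smn1 is the gene disrupted in the A2 line, and a link between any motif and the levels of these genes was not tested. Smn1 had 1 match to CCGGAA. Gemin8 had 1 match to CCGGAA, 1 to ACGTCA and 2 to GGGCGG. Neither window held TATAAA. Of 32851 promoter windows of the same length, 12.0% held CCGGAA, 6.47% ACGTCA, 32.7% GGGCGG and 12.4% TATAAA. All 9 members had a window in RefSeq, 11 windows in total, of which 3 held CCGGAA: both of Smn1 and that of Gemin8. GGGCGG was found in 7 of the 11, ACGTCA in 3 and TATAAA in 0. The Smn1 window held 6 CpG dinucleotides and the Gemin8 window 17, where the median was 6 over all windows and 17 over the 11.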

How the data were processed

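Total RNA from 6 samples, 3 per genotype, was sequenced from TruSeq libraries. Per the methods and the submitters' processing notes, the authors trimmed reads with CutAdapt, checked them with FastQC 0.10.1, mapped them with TopHat2 2.04 to NCBI m37 with Ensembl annotation, and ran Cufflinks and Cuffdiff. The deposited gene table gives 1 FPKM value per genotype and 1 status per locus. Its columns of log2 fold change, test statistic, p, q and significance hold the authors' comparison and were not used.

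Symbols were split at commas, and the row with the highest FPKM was taken per symbol. Ratios were log2(A2 SMA / Hb9 control) without pseudocount. A 2-fold change counted as a change. In the background each row counted once. Named genes are the 9 members, the most abundant and the 2-fold changed genes of each pathway list (at most 4), the most abundant of each marker list, at most 2 neighbours a member and the 3 genes nearest to Smn1; Lhx3, Chat, Mnx1, Snrpb, Snrpn and Lsm10, the neighbour Bdp1 and the 3 genes nearest to Gemin8 were added after their values were seen. An item of the list of other SMN binding proteins is not reported here and was left out of its counts. Members and lists were chosen with earlier results of these data known. Alternatives were pseudocounts of 0.1 and 1 FPKM, no filter, a filter of 5 FPKM, scaling (median gene, upper quartile, TPM, Gusb with Pgk1 and Rpl13a), summed rows, leaving out status FAIL or shared rows, and 1.5-fold. A value within 1.5-fold of the main one counted as the same, since no spread between samples exists. The counting of 2-fold calls was tested on simulated data with known changes, which is no check of the measured differences. Python 3.11.15, numpy 2.4.6, pandas 2.3.3 and matplotlib 3.10.9 were used.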

Additional observations from a re-analysis of the deposited data

How the results depend on the processing

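The log2 ratio of Smn1 stayed between -4.75 and -4.41 over all alternatives, and its difference from the partners' median between -4.57 and -4.30. The partners' median ranged from -0.21 to 0.13 and was above 0 when centred on the median gene or scaled to the upper quartile. Without rescaling, the median over the 6 partners in a row of their own with the status OK was also above 0, at 0.05. The number of partners at least 2-fold lower was 1, but 0 with a filter of 5 FPKM, which leaves out Gemin8, and 2 at 1.5-fold, where the Gemin4 locus joins it. The number at least 2-fold higher was 0 under each alternative, also at 1.5-fold. The log2 ratio of Gemin8 was between -2.38 and -1.502.

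Over all genes, the number at least 2-fold lower went from 3343 to 5051 without a filter and to 5285 at 1.5-fold. The number higher went from 1020 to 1733 without a filter, 1900 at 1.5-fold, 639 with a pseudocount of 1 FPKM, 556 with a filter of 5 FPKM, 1558 centred on the median gene and 1551 with the upper quartile. The median over all genes moved from -0.29 to 0 by centring, to -0.15 with the reference transcripts and to -0.34 with TPM.

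No paired analysis was possible because the table gives 1 pooled value per genotype, and no sample was left out for the same reason. The reads behind each value are unknown, so no counting error can be given for any member.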

Other observations

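The marker lists not described with the cell type check were low. The summed level of 7 fibroblast markers was 68.7 FPKM in control MNs and 34.4 FPKM in SMA MNs. Fibroblasts formed the feeder layer on which the mESCs were grown. Per the methods they were left to re-attach before differentiation, and cells positive for GFP were sorted later. Col1a2, the most abundant in control MNs, was at 20.1 FPKM and 8.93 FPKM, and 5 of the 7 were at least 2-fold lower, where 22.4% of all genes were. Relative to the median gene 2 of the 7 were, where 2461 of all 14926 genes were on that scale. The median log2 ratio of these 7 was -1.17, and it was -0.94 with a pseudocount of 1 FPKM and -0.88 when centred on the median gene or scaled to the upper quartile. The summed level of 6 glial markers was 42.8 FPKM and 14.4 FPKM. The most abundant, Mbp, was at 18.0 FPKM and 10.3 FPKM, and 4 of the 6 were under 1 FPKM in SMA MNs, against 2 in control MNs. Of the 4 that reach 1 FPKM in either genotype, 3 were at least 2-fold lower, where 22.4% of all genes were. No gene of either list was listed at 0. Their part in the values of the SMN complex was not tested.

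The levels of the remaining members also had close neighbours among all genes. Mid2, Matn2 and A430110N23Rik came nearest to Gemin8, with log2 ratios of -2.22, -2.37 and -2.46. These genes were picked with their values known, and with 1 value per genotype the likeness is one of level and ratio alone.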
